A study of Mus musculus with 22 samples.

Results

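The genes described here carry out or restrain inflammatory and necroptotic cell death, and include the initiator caspase below the death receptors. The 8 members (Casp1, Casp4, Gsdmd, Casp8, Ripk1, Zbp1, Ripk3 and Mlkl) were chosen by symbol as listed cell death genes, after the Ensembl identifiers of the bulk tables had been mapped to symbols. All were among the 53801 genes of both bulk count tables. In the single-cell matrix 7 of the 8 were among the 19324 genes, and Ripk3 was not analysed there.

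The study followed retinal degeneration in mice that lack Adipor1, which encodes a membrane receptor for the hormone adiponectin. Bulk RNA-Seq was made from the retina and from the retinal pigment epithelium (RPE), the pigmented layer that serves the photoreceptors, at postnatal day 30 (P30). Droplet single-cell RNA-Seq was made from retinae at P19, P25 and P30. The question put to these data was whether inflammatory or apoptotic death genes differed between knockout and wild-type mice.

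Wild-type (WT) mice were labelled C57BL/6J. Knockout mice (AdipoR1-/-, KO) carried the Adipor1 tm1Dgen allele, had been backcrossed, and came from crosses between heterozygotes. The allele was not restricted to a cell type. Bulk groups held 4 libraries per genotype and tissue, and total counts ran from 22734843 to 35118164 in the retina and from 20133143 to 38409496 in the RPE. The single-cell arm held 1 library of 4 pooled retinae per genotype and age, so its values have no replicates. Its 26764 cells were spread over libraries of 2558 to 5633 cells. Unique molecular identifiers (UMIs, tags that count captured RNA molecules) totalled 23309050 in KO P19, 25439885 in WT P19, 21429436 in KO P25 and 21724297 in WT P25. The P30 libraries were shallower, with 6207355 UMIs in KO and 5172257 in WT, and were sequenced in another batch, so libraries are set side by side within an age only. Libraries shared between 0 and 15 cell barcodes.

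Adipor1 itself (ENSMUSG00000026457) fell in both bulk tissues. In the retina it fell from 600 ± 8.09 to 139 ± 2.46 normalised counts per 1000000 (CPM, mean ± SD, n = 4), a log2 fold change of -2.11 (edgeR quasi-likelihood, Benjamini-Hochberg adjusted p 4.6e-13), with 4 of 4 KO libraries below every WT library. In the RPE it fell from 409 ± 48.7 to 146 ± 5.80 CPM, a log2 fold change of -1.49 (edgeR quasi-likelihood, Benjamini-Hochberg adjusted p 0.000207), again in 4 of 4 KO libraries. Single-cell levels were 26.3 UMIs per 1000000 (UPM) in KO against 104 in WT at P19, 39.5 against 101 at P25 and 62.0 against 321 at P30.

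The labelled tissues were checked against marker genes. RPE markers summed to between 31433 and 48673 CPM in the RPE libraries and to between 36.4 and 158 CPM in the retina libraries. Rod markers summed to between 30695 and 65134 CPM in the retina. In the RPE they varied by library, with 1205, 15876, 15858 and 1713 CPM in WT 1 to 4 and 782, 3898, 5499 and 1150 CPM in KO 1 to 4.

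RPE WT replicate 1 held the highest WT value of all 8 members. It was not apart in every respect, since by rod RNA WT 2 and WT 3 differed from WT 1 and WT 4. It had the highest WT sum of neutrophil and monocyte markers, 30.4 CPM, and of choroid melanocyte and fibroblast markers, 1453 CPM against 695, 452 and 687. RPE results are given with and without it. Because it was picked by the members' own values, leaving it out favours higher values in KO.

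As background, inflammatory caspases cleave gasdermin D, whose released part forms pores in the plasma membrane and lets cytokines out. Caspase-8 and RIPK1 sit at a branch point below death receptors, where signalling ends in survival, in apoptosis or, when caspase-8 is inactive, in necroptosis through RIPK3 and the pore-forming pseudokinase MLKL. ZBP1 binds nucleic acids in the Z form and passes the signal to RIPK3.

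In the retina, 5 of the 8 members had enough counts to be tested, and 4 of them (Casp1, Casp8, Gsdmd and Zbp1) were called higher in KO. A call needed a fold change of 1.5 or more beside an adjusted p under 0.05. Among all 19381 genes tested, 7% were called higher and 3.04% lower. All 5 tested members had every KO library above every WT library, beside 16.2% of all genes. Casp1 and Zbp1 reached the count filter through their KO libraries, so this count describes the list and does not test it.

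Casp1 (ENSMUSG00000025888, chr9:5298517-5307265, GRCm38/mm10), the inflammasome caspase that matures interleukin-1 beta, measured 0.0680, 0.0705, 0.0754 and 0.176 CPM in retina WT 1 to 4 and 0.879, 1.26, 0.914 and 0.673 CPM in KO 1 to 4. WT 4 was the highest WT library, yet the lowest KO library lay well above it. Over 4 libraries that was 11 counts in WT and 117 in KO. The log2 fold change was 3.22 (95% confidence interval 2.44 to 3.99; edgeR quasi-likelihood, Benjamini-Hochberg adjusted p 1.38e-05), higher in 4 of 4 KO libraries.

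Casp4 (ENSMUSG00000033538, chr9:5308828-5336783), the caspase that senses cytosolic lipopolysaccharide, starts next to Casp1 on the same strand. It measured 0.0680, 0.0353, 0.0377 and 0.141 CPM in retina WT 1 to 4 and 0.302, 0.150, 0.372 and 0.420 CPM in KO 1 to 4. All KO libraries again lay above all WT libraries, but the gene had only 8 counts in WT and 37 in KO and did not pass the count filter. With no filter its log2 fold change was 2.04 (edgeR quasi-likelihood, Benjamini-Hochberg adjusted p 0.00723, higher in 4 of 4 KO libraries).

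Gsdmd (ENSMUSG00000022575, chr15:75862327-75867408), the pore-forming substrate of both caspases, measured 1.56, 1.34, 0.942 and 0.987 CPM in retina WT 1 to 4 and 2.14, 2.70, 2.03 and 2.73 CPM in KO 1 to 4. The groups did not overlap, and the gap between the lowest KO and the highest WT library was smaller than the range inside either group. Gsdmd rose with a log2 fold change of 0.98 (SE 0.19; edgeR quasi-likelihood, Benjamini-Hochberg adjusted p 0.00147), higher in 4 of 4 KO libraries.

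Casp8 (ENSMUSG00000026029, chr1:58795374-58847503), the initiator of death receptor apoptosis and a brake on necroptosis, measured 0.884, 1.06, 0.791 and 1.06 CPM in retina WT 1 to 4 and 2.47, 2.28, 2.50 and 2.02 CPM in KO 1 to 4. Every KO library lay above every WT library. Casp8 rose with a log2 fold change of 1.29 (SE 0.16; edgeR quasi-likelihood, Benjamini-Hochberg adjusted p 3.57e-05), higher in 4 of 4 KO libraries.

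Ripk1 (ENSMUSG00000021408, chr13:34002363-34037147), the kinase and scaffold below tumour necrosis factor receptor 1, had the most counts of the members in the retina. It measured 12.4, 10.8, 12.4 and 11.3 CPM in WT 1 to 4 and 16.7, 17.2, 17.3 and 16.7 CPM in KO 1 to 4. The groups were tight and did not overlap. The log2 fold change of 0.53 (95% confidence interval 0.39 to 0.68; edgeR quasi-likelihood, Benjamini-Hochberg adjusted p 4.69e-05, higher in 4 of 4 KO libraries) was below the fold minimum, so Ripk1 was not called. Ripk1 shares 511 of its 8344 exon bases with the pseudogene Gm17084 on the same strand and 241 with Serpinb6a on the opposite strand.

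Zbp1 (ENSMUSG00000027514, chr2:173206612-173218923), the nucleic acid sensor and an interferon-induced gene, measured 0.442, 0.353, 0.415 and 0.176 CPM in retina WT 1 to 4 and 1.21, 1.14, 1.35 and 0.925 CPM in KO 1 to 4. The lowest KO library, replicate 4, lay above the highest WT library. Zbp1 rose with a log2 fold change of 1.74 (SE 0.26; edgeR quasi-likelihood, Benjamini-Hochberg adjusted p 0.000195) in 4 of 4 KO libraries.

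The kinase and the executor below Zbp1 were near the detection limit in the retina, and neither passed the count filter. Ripk3 (ENSMUSG00000022221, chr14:55784995-55788865) measured 0.0680, 0.106, 0.0754 and 0 CPM in WT 1 to 4 and 0.0275, 0.0899, 0.0338 and 0.252 CPM in KO 1 to 4. The genotypes overlapped, with 7 counts in WT and 11 in KO. Mlkl (ENSMUSG00000012519, chr8:111311797-111338177) measured 0.170, 0.0705, 0.264 and 0.176 CPM in WT 1 to 4 and 0.440, 0.330, 0.542 and 0.210 CPM in KO 1 to 4. KO 4 lay below WT 3, the highest WT library, and the others did not overlap. Mlkl was called when either was left out, at a log2 fold change of 1.45 without WT 3 (edgeR quasi-likelihood, Benjamini-Hochberg adjusted p 0.0373, higher in 4 of 4 KO libraries) and 1.34 without KO 4 (edgeR quasi-likelihood, Benjamini-Hochberg adjusted p 0.0273, higher in 3 of 3). These were the libraries that overlapped, so leaving out either favours a higher value in KO. It was tested and not called without WT 1, WT 2 or WT 4 (log2 fold change 1.18, 0.92 and 1.20; edgeR quasi-likelihood, Benjamini-Hochberg adjusted p 0.0953, 0.109 and 0.0886, with 3 of 4 KO libraries above every WT library). With no filter and all libraries it was not called, at a log2 fold change of 1.16 (edgeR quasi-likelihood, Benjamini-Hochberg adjusted p 0.0614, higher than the WT mean in 4 of 4 KO libraries).

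**Figure D1:**
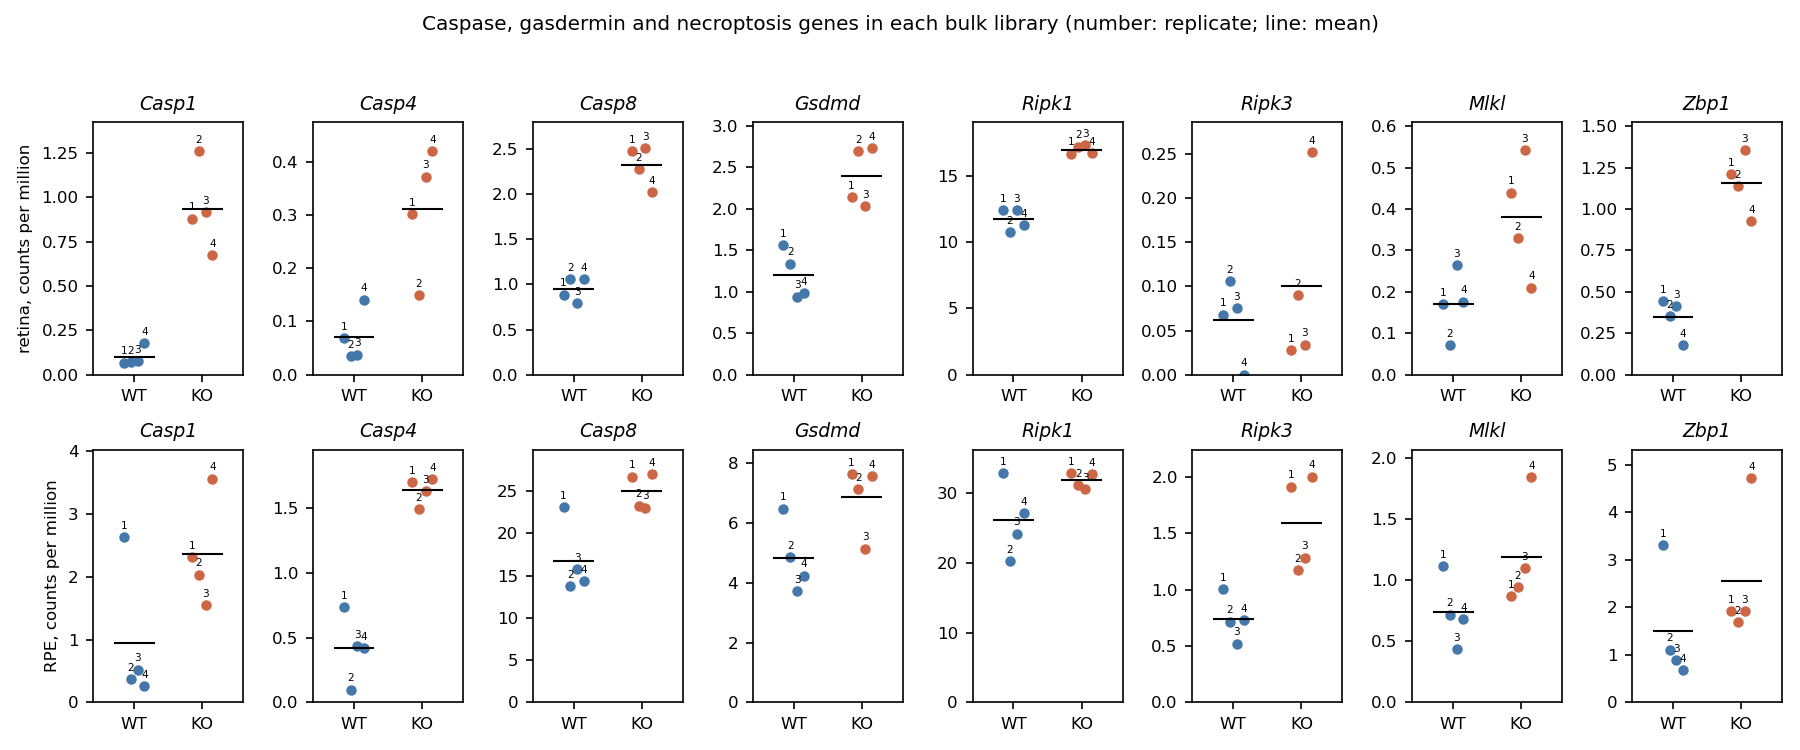
Normalised counts per 1000000 (CPM, linear axes, 1 scale per panel) of the 8 members in each of the 16 bulk libraries, retina above and RPE below; numbers mark the replicate and lines the mean. In the retina the Casp1, Casp8, Gsdmd, Ripk1 and Zbp1 points of KO lie above all WT points, and in the RPE WT replicate 1 is the highest WT point of every member.

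Marker genes of several cell types moved with the members in the retina. All 12 of 12 microglia markers were called higher, with sums of 72.4, 74.2, 77.2 and 72.6 CPM in WT 1 to 4 and 252, 253, 293 and 276 CPM in KO 1 to 4. None was at 0. Of 9 Müller glia markers, 3 were called higher, with sums of 4437, 4828, 4478 and 4665 CPM in WT and 6065, 5988, 5730 and 6161 CPM in KO. None was at 0, 6 of the 9 had a positive log2 fold change, and Glul, the most abundant, measured less in KO (1821 CPM) than in WT (2171 CPM) and was not called. Of 6 endothelium markers, 1 was called higher (Kdr, also the most abundant), with sums of 292, 319, 270 and 266 CPM in WT and 464, 438, 444 and 446 CPM in KO, none at 0. Most of that rise was Kdr itself, from 173 to 316 CPM, and the list's median log2 fold change was 0.08. Of 8 rod markers, 7 were called lower, with sums of 64462, 65134, 59514 and 59114 CPM in WT and 34889, 33420, 33635 and 30695 CPM in KO and none at 0. Of 4 astrocyte markers, 1 was called higher (Gfap, also the most abundant), with sums of 34.0, 37.5, 43.3 and 34.8 CPM in WT and 222, 206, 247 and 260 CPM in KO, none at 0. Here too most of the rise was a single gene, Gfap, from 19.7 to 209 CPM, with a list median of 0.67. Of 5 choroid melanocyte and fibroblast markers, 4 were tested and 2 called higher, led by Col3a1 and none at 0, with sums of 4.25, 5.04, 5.12 and 4.19 CPM in WT and 4.95, 65.7, 7.21 and 7.02 CPM in KO. KO 2, the highest library for these, also had the highest Casp1. How much of the change in the members came with these shifts was not tested. In bulk tissue, more cells of a type and more RNA per cell cannot be told apart.

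In the RPE all 8 members were tested and all 8 had a positive log2 fold change, with a median of 0.71 beside -0.02 for all genes. Only Casp4 was called higher, beside 2.02% of the 18989 genes tested called higher and 2.95% lower. DESeq2 called 2 members higher (Casp4 and Ripk3), and limma-voom 1. Casp4 and Ripk3 had every KO library above every WT library, beside 7.37% of all genes. Libraries varied more than in the retina, with a common biological coefficient of variation of 0.295 against 0.0921.

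Casp4 measured 0.734, 0.0988, 0.433 and 0.419 CPM in RPE WT 1 to 4 and 1.70, 1.49, 1.63 and 1.72 CPM in KO 1 to 4. The KO libraries were tightly grouped, and each lay above all WT libraries. Casp4 rose with a log2 fold change of 1.95 (SE 0.46; edgeR quasi-likelihood, Benjamini-Hochberg adjusted p 0.0455), higher in 4 of 4 KO libraries. The call was lost without WT 3 (adjusted p 0.113), WT 4 (0.102), KO 1 (0.114), KO 2 (0.101), KO 3 (0.0977) or KO 4 (0.120), each from edgeR quasi-likelihood with Benjamini-Hochberg adjustment, at log2 fold changes from 1.61 to 2.42 over all libraries left out, with every remaining KO library above every WT library.

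The neighbouring Casp1 measured 2.64, 0.370, 0.520 and 0.262 CPM in RPE WT 1 to 4 and 2.31, 2.04, 1.55 and 3.56 CPM in KO 1 to 4. WT 1 lay among the KO libraries, and the other 3 WT libraries lay below all of them. With all libraries the log2 fold change was 1.28 (95% confidence interval -0.33 to 2.90; edgeR quasi-likelihood, Benjamini-Hochberg adjusted p 0.353, with 4 of 4 KO libraries above 3 of 4 WT libraries). Gsdmd measured 6.47, 4.86, 3.73 and 4.24 CPM in WT 1 to 4 and 7.62, 7.13, 5.14 and 7.57 CPM in KO 1 to 4. KO 3 fell inside the WT range, and the other KO libraries lay above it.

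Casp8 measured 23.1, 13.8, 15.8 and 14.3 CPM in RPE WT 1 to 4 and 26.7, 23.3, 23.1 and 27.0 CPM in KO 1 to 4. KO 3 lay marginally below WT 1, and all other KO libraries lay above every WT library. The log2 fold change was 0.58 (SE 0.17; edgeR quasi-likelihood, Benjamini-Hochberg adjusted p 0.0951, 3 of 4 KO libraries above every WT library). Ripk1 measured 32.9, 20.3, 24.2 and 27.2 CPM in WT 1 to 4 and 33.0, 31.2, 30.6 and 32.8 CPM in KO 1 to 4. Again only WT 1 overlapped the KO libraries. Neither Gsdmd (log2 fold change 0.51) nor Ripk1 (0.29) was called (edgeR quasi-likelihood, Benjamini-Hochberg adjusted p 0.220 and 0.294, in both with 3 or more KO libraries above 3 of 4 WT libraries).

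The necroptosis members were better covered in the RPE than in the retina. Ripk3 measured 1.01, 0.716, 0.520 and 0.733 CPM in RPE WT 1 to 4 and 1.91, 1.17, 1.29 and 2.00 CPM in KO 1 to 4. The genotypes did not overlap. The log2 fold change of 1.09 (SE 0.27; edgeR quasi-likelihood, Benjamini-Hochberg adjusted p 0.0551, higher in 4 of 4 KO libraries) missed the threshold. With replicate numbers as a block Ripk3 was called at 1.08 (edgeR quasi-likelihood, Benjamini-Hochberg adjusted p 0.0437, higher in 4 of 4 KO libraries).

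Mlkl measured 1.12, 0.716, 0.433 and 0.680 CPM in RPE WT 1 to 4 and 0.867, 0.940, 1.10 and 1.84 CPM in KO 1 to 4. WT 1 exceeded 3 of the KO libraries, and KO 4 was the highest of all. Zbp1 measured 3.32, 1.11, 0.896 and 0.680 CPM in WT 1 to 4 and 1.91, 1.68, 1.93 and 4.72 CPM in KO 1 to 4. WT 1 and KO 4 each stood far above the rest of their group. The log2 fold changes were 0.68 for Mlkl and 0.75 for Zbp1 (edgeR quasi-likelihood, Benjamini-Hochberg adjusted p 0.331 and 0.495, in each case with 4 of 4 KO libraries above 3 of 4 WT libraries).

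Without WT replicate 1, the highest WT library of every member, 4 members were called higher, beside 5.6% of 19226 genes tested called higher and 3.13% lower. The called members were Casp1, Casp4, Casp8 and Ripk3, and these calls are no independent evidence, because that library was left out for its high member values. Casp1 then rose from 0.385 to 2.37 CPM (log2 fold change 2.57, edgeR quasi-likelihood, Benjamini-Hochberg adjusted p 0.00906, 4 of 4 KO libraries). Casp4 rose from 0.318 to 1.64 CPM (log2 fold change 2.42) and Ripk3 from 0.658 to 1.60 CPM (log2 fold change 1.28). Casp8 rose from 14.7 to 25.1 CPM (log2 fold change 0.78, edgeR quasi-likelihood, Benjamini-Hochberg adjusted p 0.00649, 4 of 4 KO libraries). Zbp1, at 1.49, Mlkl, at 0.96, and Gsdmd, at 0.68, were not called, and Ripk1 stayed below the fold minimum at 0.42.

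Microglia markers also moved in the RPE, where 10 of 12 were called higher. Their sums were 702, 443, 599 and 670 CPM in WT 1 to 4 and 824, 886, 902 and 924 CPM in KO 1 to 4, Csf1r was the most abundant, and none was at 0. Of 7 neutrophil and monocyte markers, 5 were tested and 2 called lower; led by Plac8 and with none at 0, they summed to 30.4, 11.3, 10.2 and 13.5 CPM in WT 1 to 4 and 15.6, 15.1, 18.7 and 46.4 CPM in KO 1 to 4, so that KO 4, the library with the highest Zbp1 and Casp1, was the highest KO library for them too. Of 7 RPE markers, 1 was called higher and 2 lower, led by Ttr, with sums of 48537, 31433, 44917 and 48673 CPM in WT and 41887, 41652, 42022 and 43804 CPM in KO. Of 6 lens markers, 2 were called lower, led by Cryaa, with sums of 32.3, 289, 30.3 and 627 CPM in WT and 34.9, 25.1, 17.2 and 19.1 CPM in KO. Of 9 Müller glia markers 1 was called higher, led by Clu, with sums of 22998, 16753, 21100 and 25039 CPM in WT and 25793, 25510, 25630 and 25464 CPM in KO. Only 2 of the 9 had a positive log2 fold change (median -0.09), while Clu went from 7019 to 12316 CPM. Of 5 pericyte markers 1 was called higher, led by Rgs5, with sums of 228, 197, 180 and 199 CPM in WT and 213, 203, 205 and 207 CPM in KO. None of these was at 0. The part of these sets in the difference in Zbp1 or Casp1 was not tested.

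The effect of genotype was compared between tissues by its interaction with tissue. For 0 of the 8 members did it differ (edgeR quasi-likelihood, Benjamini-Hochberg adjusted p below 0.05), beside 5.73% of 21068 genes with a lower and 3.11% with a higher effect in the RPE. At an unadjusted p below 0.05 it was 1 member, Casp8, and limma-voom also called 0. The RPE effect on Casp8 was smaller by 0.69 log2 units (edgeR quasi-likelihood, unadjusted p 0.00715, Benjamini-Hochberg adjusted p 0.0669, with 4 of 4 retina and 3 of 4 RPE KO libraries above every WT library). Leaving out RPE WT 2 or RPE WT 4 brought Casp8 past the threshold, at -0.77 and -0.76 (edgeR quasi-likelihood, Benjamini-Hochberg adjusted p 0.0402 and 0.0463, all retina KO libraries above WT). The estimate was -1.92 (SE 0.97) for Casp1 and -0.98 for Zbp1, and the small value of -0.05 for Casp4 changed sign under alternatives.

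Per length (RPKM, CPM divided by exon length in kilobases), Ripk1 was the highest member in the retina in both genotypes, at 1.40 in WT and 2.03 in KO. Gsdmd came next at 0.508 and 1.01, and Casp8 at 0.328 and 0.801. Casp1 stood at 0.0651 in WT, within the replicate spread of Zbp1 at 0.0981 and Mlkl at 0.0739, and in KO it reached 0.622, above Zbp1 at 0.328 and Mlkl at 0.165. In the RPE Casp8 led instead, at 5.79 RPKM in WT and 8.65 in KO, ahead of Ripk1 at 3.14 and 3.82 and Gsdmd at 2.03 and 2.89. Ripk3 (0.325 and 0.696 RPKM), Mlkl (0.320 and 0.515) and Zbp1 (0.425 and 0.726) stayed low there. Casp4 had the lowest means, at 0.114 and 0.440, and Casp1 stood at 0.633 and 1.58.

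Lists of apoptotic and inflammatory genes were set beside the members. The apoptosis machinery and necroptosis regulator lists are incomplete, with 1 gene of each not used here, so their counts cover the genes used only. In the retina 1 of 13 apoptosis machinery genes was called (Xiap, lower), and DESeq2 and limma-voom kept all 19 pathway calls. The median of that list's log2 fold changes was -0.09, against 1.29 for the 5 tested members, 1.38 for 16 tested inflammasome and pyroptosis genes and 0.00 for all genes. Genes low in WT that reached the count filter through KO, such as Casp1 and Zbp1, raise the medians of the members and the inflammasome list. These medians therefore describe the lists and do not test them. Casp8, Gsdmd and Ripk1, the members with at least 10 counts in every library, stood at 1.29, 0.98 and 0.53. Of those 16 inflammasome genes, 10 were called higher. The death receptor list had 5 of 11 called higher (median 0.42), the BCL2 family 1 of 15 (median 0.14), and the necroptosis regulators 1 higher and 1 lower of 14 (median 0.04). Of the 9 other gasdermins only Gsdme, chosen after its values were seen, was tested, at 0.19, and it was not called. The Naip and Gbp genes come in closely related copies, between which reads can be misassigned.

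Several pathway genes called in the retina act upstream of the members. Tnfrsf1a, the receptor that feeds Ripk1 and Casp8, rose from 6.35 to 24.5 CPM in the retina (log2 fold change 1.95, edgeR quasi-likelihood, Benjamini-Hochberg adjusted p 1.73e-08, 4 of 4 KO libraries). Fas rose with a log2 fold change of 1.52, Birc3 with 1.69 and Tnfrsf1b with 1.26. The fifth called death receptor gene, Tnfrsf10b at 1.08, was chosen after its values were seen. Gbp2, whose product opens the way to Casp4, rose from 2.77 to 17.1 CPM (log2 fold change 2.62), and Gbp3, Gbp5 and Irf1 rose with 1.63, 1.43 and 1.32. Among necroptosis regulators Tlr3 rose with 0.76.

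A pair of inhibitors fell in the retina. Tnfaip3, which restrains signalling through Ripk1, measured 413, 378, 406 and 422 CPM in WT 1 to 4 and 170, 152, 154 and 142 CPM in KO 1 to 4. Xiap, an inhibitor of caspases, measured 426, 393, 389 and 422 CPM in WT and 247, 240, 223 and 223 CPM in KO. Neither gene's groups overlapped. The log2 fold changes were -1.39 and -0.80 (edgeR quasi-likelihood, Benjamini-Hochberg adjusted p 9.10e-10 and 5.14e-08, lower in 4 of 4 KO libraries). Rod markers fell too (7 of 8, median log2 fold change -0.89) and Xiap was counted in rod-like cells. How much of either fall came with the rods was not tested. The BCL2 family member called higher was the apoptosis promoter Bik, at 0.136, 0.106, 0.0377 and 0.106 CPM in WT and 3.02, 2.34, 1.96 and 2.57 CPM in KO, a log2 fold change of 4.61.

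In the RPE the death receptor list had 1 of 11 (Tnfrsf1a, 0.91, median 0.09) and the inflammasome list 1 of 18 (Gbp3, 0.64, median 0.73). Among the genes used, edgeR called none of the BCL2 family (7 of 15 at an unadjusted p below 0.05, beside 3863 of all 18989 genes, median 0.12), the apoptosis machinery (2 of 13, median -0.01) or the necroptosis regulators (1 of 14, median -0.01), nor did DESeq2 or limma-voom, and Gsdme stood at -0.24. DESeq2 added Naip2, Naip5 and Naip6, chosen after their values were seen. Without WT replicate 1 the inflammasome list had 7 called higher (median 1.14), and the BCL2 family and death receptor lists had 1 each (Bik and Tnfrsf1a). The interaction with tissue was called, with the lower log2 fold change in the RPE, for 5 of 11 death receptor genes (Fas, Tnfrsf1a, Tnfrsf1b, Birc3 and Tnfrsf10b), 3 of 19 inflammasome genes (Gbp2, Gbp3 and Gbp5) and 2 of 16 BCL2 family genes (Bik and Bcl2l1). Of these, Tnfrsf10b and Bcl2l1 were chosen after their values were seen. It was called for 0 of 13 apoptosis machinery genes and 0 of 14 necroptosis regulators used, beside 5.73% of all genes with a lower effect in the RPE.

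**Figure D2:**
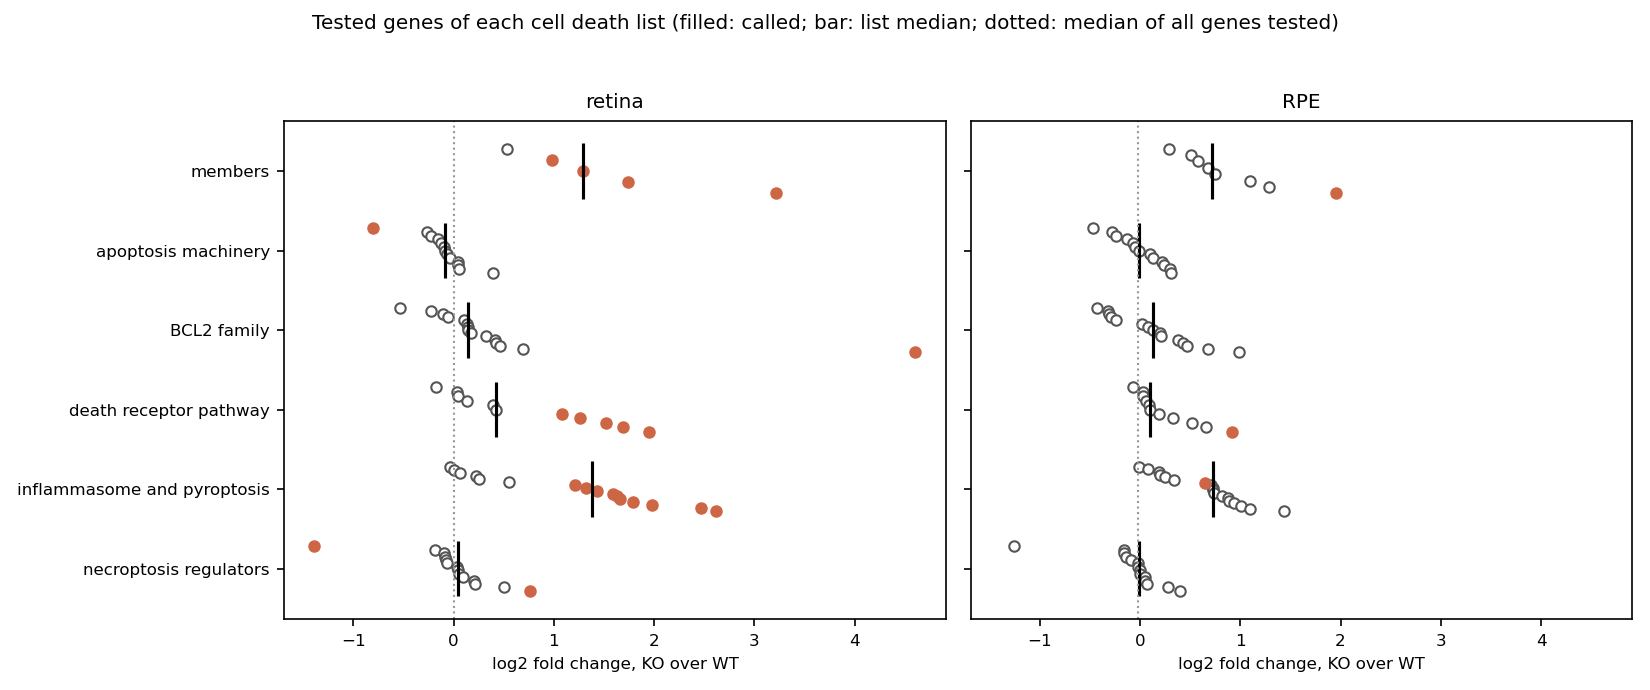
Log2 fold change (KO over WT) of each tested gene of the members and 5 pathway lists in the retina and the RPE; filled points were called, bars are list medians and the dotted line is the median of all genes. In the retina the member median of 1.29 and the inflammasome median of 1.38 stand above the apoptosis machinery median of -0.09. Genes that reached the filter through KO raise the member and inflammasome medians, so the contrast describes the lists and does not test them.

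Single cells showed in which cell classes the members were counted. Clusters took the class whose markers were most raised in them, and 8 of 29 named clusters, all rod, amacrine or bipolar, had none of these among their 10 top genes. They are called "-like" because the sort into classes rests on markers alone. Over all libraries 7 members gave 1677 UMIs, of which 1097 (65.4%, exact 95% interval 63.1 to 67.7) lay in Müller glia-like, microglia-like and endothelium-like cells. The share was 97.0% for Casp4, 92.2% for Casp1, 88.8% for Casp8, 87.8% for Mlkl, 83.5% for Zbp1, 59.1% for Gsdmd and 42.1% for Ripk1. For Gsdmd the unnamed clusters together held 45 UMIs (28.3%), more than any single named class. The 3 classes held 2101, 133 and 260 cells, with 10034294, 631652 and 2839661 of all 103282280 UMIs. The interval covers counting error only and carries no spread between cells or libraries. No doublet caller was run, and with the 5% most UMI-rich cells of each library removed the share was 57.0%. At Leiden resolution 2.0 it was 65.5%. At resolution 0.5 the same number of endothelium-like cells, 260 with Cldn5 as leading gene, took an erythrocyte name and so left the 3 classes, and the share was 35.2%, with 33.1% for Casp8 and 16.3% for Mlkl.

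Summed over the 6 libraries, the classes differed in which members they held. In microglia-like cells Zbp1 had 67 UMIs (106 UPM), Casp8 61 (96.6 UPM), Casp4 41 (64.9 UPM), Casp1 34 (53.8 UPM) and Gsdmd 31 (49.1 UPM), against 1 for Mlkl. That order was not the same in each library: in KO P19 Casp8 (111 UPM) and Casp4 (91.6 UPM) were above Zbp1 (48.2 UPM), and in WT P25 Casp1 (175 UPM, 7 UMIs) was above Casp8 (99.9 UPM, 4 UMIs). In endothelium-like cells Casp8 led with 199 UMIs (70.1 UPM), followed by Ripk1 with 124 (43.7 UPM), Zbp1 with 81, Gsdmd with 43 and Mlkl with 35 (12.3 UPM), but in KO P25 Zbp1 had 49, Ripk1 43 and Casp8 40. Müller glia-like cells had 168 UMIs of Ripk1 (16.7 UPM), 56 of Casp8, 54 of Zbp1, 35 of Casp1 and 1 of Casp4, but in KO P19, P25 and P30 Zbp1 (16, 34 and 3) was above Casp8 (13, 27 and 2). The endothelium-like cluster had Hbb-bs beside Cldn5 and Ly6c1 among its leading genes.

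Rod-like cells held few UMIs of the members other than Ripk1. In 8128 rod-like cells with 10833923 UMIs, Ripk1 had 71 UMIs (6.55 UPM), Casp8 3, Zbp1 1 and Casp1 0 (exact 95% upper limit 0.340 UPM). Casp1 also had 0 UMIs in cone-like and bipolar-like cells. The 7 members together gave 6.92 UPM in rod-like cells, 34.0 in Müller glia-like, 179 in endothelium-like and 394 in microglia-like cells. Other small classes held members too. Ripk1 gave 30.7 UPM in pericyte-like (14 UMIs), 21.8 in astrocyte-like (15 UMIs) and 20.6 in RPE-like cells (39 UMIs), above the 16.7 of Müller glia-like cells. Zbp1 was lower in each of them (2.19, 0 and 3.69 UPM) than in Müller glia-like cells (5.38 UPM). The RPE-like class (229 cells) is mixed, with Optc, Fbln1 and Dcn beside Ttr among its leading genes. At Leiden resolution 2.0, 147 cells led by Optc were named choroid melanocyte and fibroblast, and 104 were named RPE. The 13 apoptosis machinery genes used gave 774 UPM (8382 UMIs) in rod-like cells, 363 in Müller glia-like, 531 in endothelium-like and 382 in microglia-like cells, and 619 over all cells. Xiap alone gave 3386 of the 8382 UMIs in rod-like cells. As a measure of free RNA, microglia markers gave 23.3 UPM in rod-like, 33.1 in Müller glia-like and 42.3 in endothelium-like cells, against 45037.5 in microglia-like cells.

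**Figure D3:**
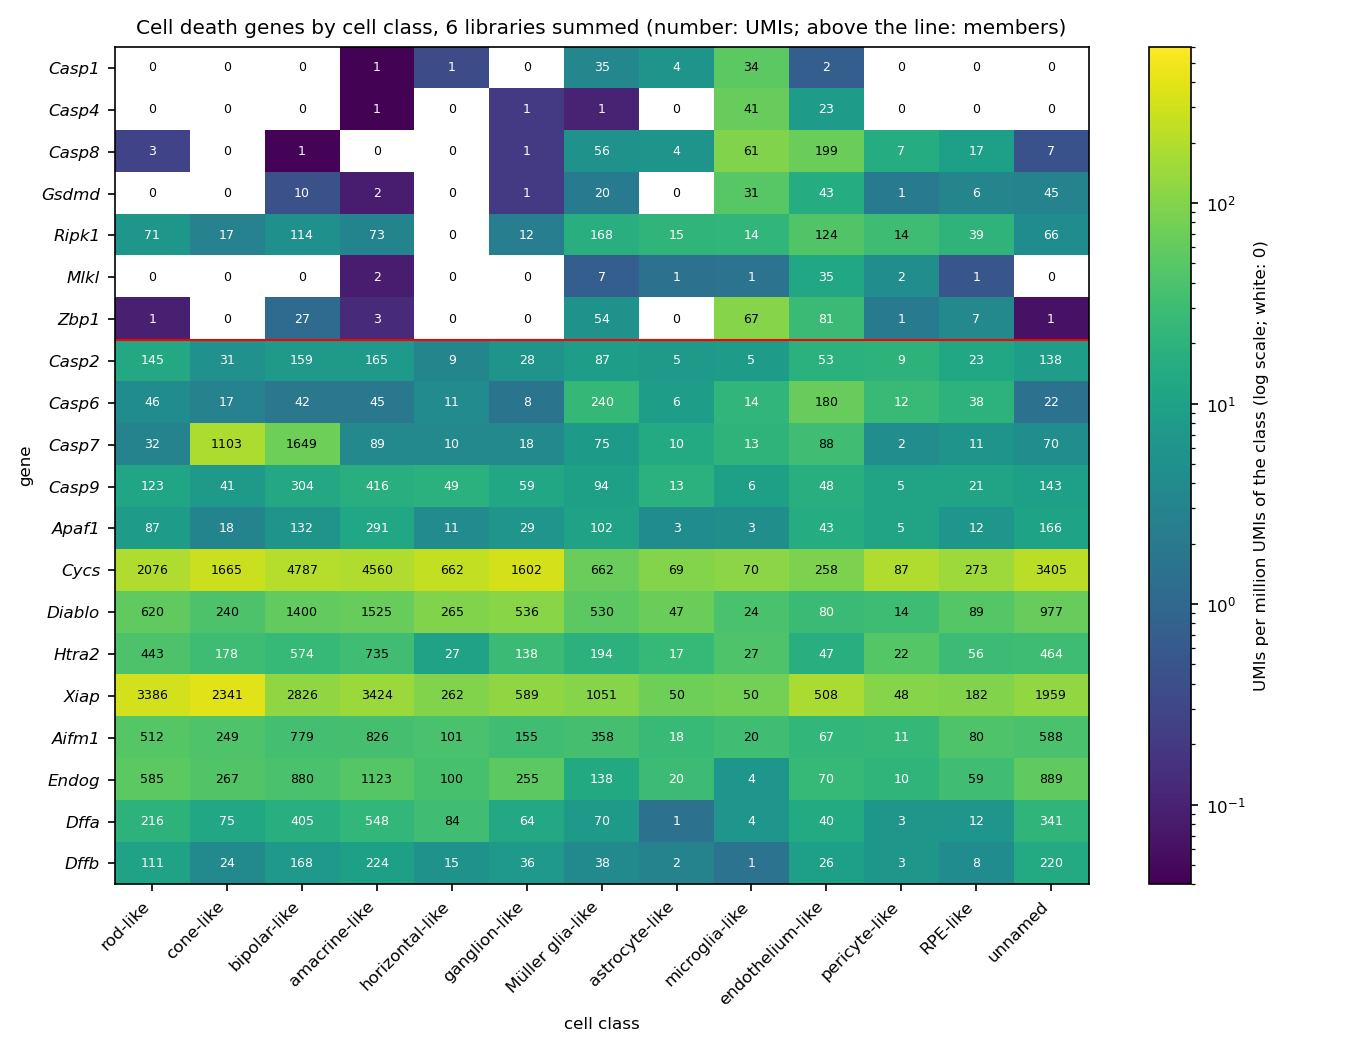
UMIs per 1000000 (UPM, color, log scale) of the 7 members in the matrix (above the red line) and 13 apoptosis machinery genes by cell class, all 6 libraries together; numbers are UMIs. Casp1, Casp4, Casp8, Gsdmd and Zbp1 are highest in microglia-like cells, at 53.8, 64.9, 96.6, 49.1 and 106 UPM, and Ripk1 and Mlkl in endothelium-like cells, at 43.7 and 12.3 UPM.

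In whole libraries at P25, the member with the largest KO to WT ratio among those with counts in both was Zbp1, with 152 UMIs in KO and 20 in WT (7.70-fold in UPM, 95% counting interval 4.82 to 13.0). Casp1 had 38 and 8 UMIs (4.82-fold, 2.21 to 11.9), Casp4 26 and 6 (4.39-fold, 1.77 to 13.1), Casp8 106 and 52 (2.07-fold, 1.47 to 2.94) and Ripk1 207 and 111 (1.89-fold, 1.49 to 2.40). Mlkl had 20 UMIs in KO and 0 in WT, with an exact 95% lower limit of 5.00-fold. The interval for Gsdmd (45 and 29 UMIs, 1.57-fold, 0.965 to 2.60) included no change. These intervals cover counting error only, and the libraries also differed in cells, with 40 microglia-like cells in KO P25 and 7 in WT P25.

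At P19 Casp4 had 27 UMIs in KO and 5 in WT (5.89-fold, 2.24 to 19.6), Zbp1 42 and 22 (2.08-fold, 1.22 to 3.66) and Gsdmd 43 and 27 (1.74-fold, 1.05 to 2.93). Casp1 had 12 in each, Casp8 100 and 93 (1.17-fold), and Ripk1 188 and 168 (1.22-fold). Mlkl had 9 UMIs in KO and 20 in WT (0.491-fold), with an interval of 0.197 to 1.13 that included no change. The shallower P30 libraries held few UMIs of the members. Ripk1 had 23 UMIs in KO and 30 in WT (0.639-fold, 0.354 to 1.14, which includes no change). In the bulk retina at P30 it was higher in KO (log2 fold change 0.53, not called), and the cause of this difference was not tested. Zbp1 had 6 and 0 (an exact 95% lower limit of 0.981-fold, which includes no change), Casp1 6 and 1, Gsdmd 8 and 7, Casp8 4 and 1, Casp4 3 and 0, and Mlkl 0 in both.

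Within Müller glia-like cells, most of which sat in cluster 4 at P19 and P25, Zbp1 had 16 UMIs in KO and 1 in WT at P19 (9.92-fold, 1.54 to 416). At P25 it had 34 and 0, with an exact 95% lower limit of 4.01-fold. Casp1 had 20 UMIs in KO and 1 in WT at P25 (9.18-fold, 1.47 to 381), and 6 and 3 at P19. Casp8 (27 and 9 UMIs at P25, 1.38-fold, 0.629 to 3.33) and Ripk1 (67 and 26, 1.18-fold) did not differ detectably at this depth. Microglia markers in the same cells were 34.6 UPM in KO P25 and 32.0 in WT P25, while rod markers were 3867 and 1229. At Leiden resolution 2.0 cells of this class separated by genotype at P25, and only in part at P19. Cluster 11 had 470 KO and 14 WT cells at P25 and 198 and 9 at P19, and cluster 8 had 28 and 339 at P25 and 252 and 319 at P19. The genotypes are therefore compared over different cell states of the class at P25, and over partly shared states at P19.

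In endothelium-like cells (cluster 25 in every library) Casp8 had 49 UMIs in KO and 71 in WT at P19 (1.08-fold) and 40 and 38 at P25 (0.904-fold). Zbp1 had 9 and 15 UMIs at P19 (0.942-fold) and 49 and 8 at P25 (5.26-fold, 2.47 to 12.9). Ripk1 had 28 and 37 (1.19-fold) and 43 and 13 (2.84-fold, 1.5 to 5.76). Mlkl had 6 and 19 UMIs at P19 (0.496-fold, 0.162 to 1.29) and 10 and 0 at P25 (exact 95% lower limit 1.92-fold). In bipolar-like cells Zbp1 had 5 UMIs in KO and 5 in WT at P19 (1.27-fold, 0.293 to 5.54). At P25 it had 14 and 3 there (6.29-fold, 1.75 to 34.1).

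Microglia-like cells (cluster 33) were few, and their ratios went both ways. At P25 Zbp1 had 45 UMIs in KO and 8 in WT, a UPM ratio of 0.824 (0.384 to 2.02), and Casp8 28 and 4, a ratio of 1.03 (0.359 to 4.02). Ripk1 had 2 and 4, a ratio of 0.0732 (0.00663 to 0.511). Ripk1 went the other way at P19, with 8 UMIs in KO and 0 in WT. The lower limit of that P19 ratio was 0.408-fold, which includes no change. At P19 Zbp1 had 10 and 1, a ratio of 2.39 (0.340 to 104), and Gsdmd 9 and 1, a ratio of 2.15 (0.298 to 94.2). Casp1 at P25 had 17 and 7, a ratio of 0.356 (0.140 to 1.01). Casp4 at P19 had 19 and 1, a ratio of 4.54 with a counting interval of 0.721 to 189. Microglia-like cells numbered 32, 40 and 33 in KO and 17, 7 and 4 in WT at P19, P25 and P30.

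**Figure D4:**
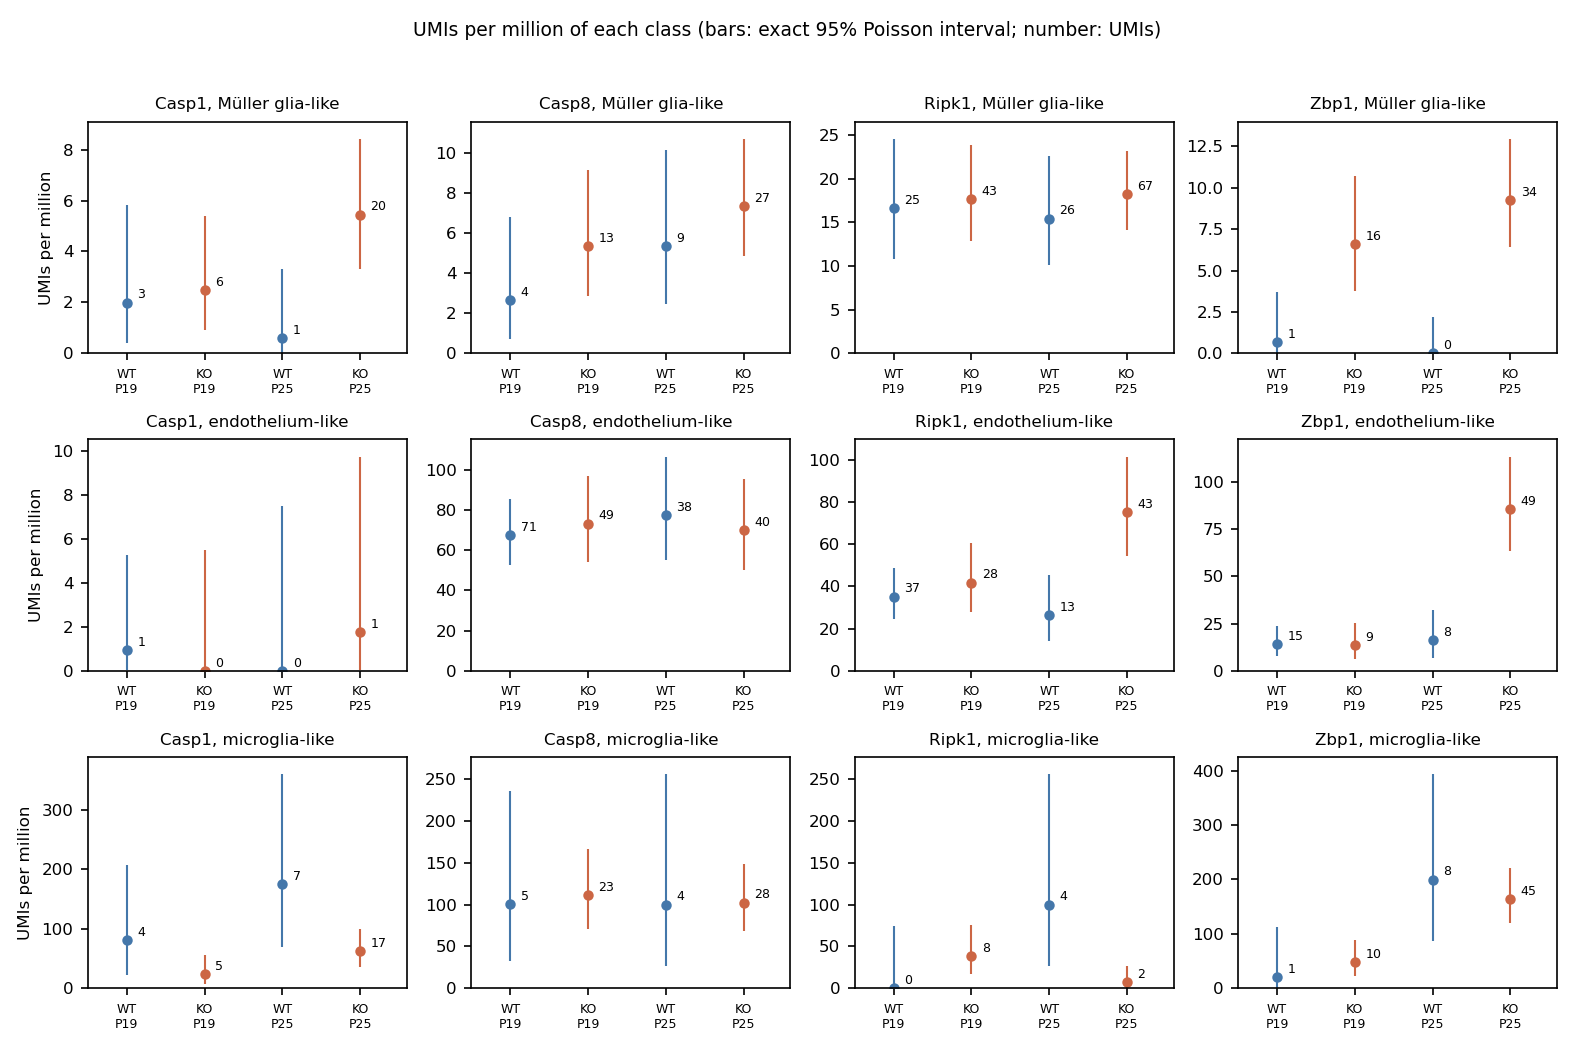
UMIs per 1000000 (UPM) of Casp1, Casp8, Ripk1 and Zbp1 in Müller glia-like, endothelium-like and microglia-like cells of the P19 and P25 libraries, 1 library per genotype and age; bars are exact 95% Poisson intervals. In Müller glia-like cells Zbp1 had 34 UMIs in KO P25 and 0 in WT P25.

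Rod-like cells of the genotypes fell into different clusters (0 in KO and 1 in WT at P19 and P25, 2 in KO and 6 in WT at P30). In them Bik had 6 UMIs in KO and 0 in WT at P19 (exact 95% lower limit 1.10-fold), 35 and 1 at P25 (11.7-fold, 1.97 to 475) and 41 and 1 at P30 (30.6-fold, 5.19 to 1238). The KO to WT ratio of Xiap was 0.602 (0.532 to 0.681) at P19, 0.570 (0.513 to 0.633) at P25 and 0.591 (0.511 to 0.683) at P30. That of Tnfaip3 was 0.677 (0.561 to 0.817), 0.517 (0.436 to 0.614) and 0.382 (0.306 to 0.475). These intervals carry no spread between animals. Bipolar markers in these rod-like cells, as a measure of carry-over, were 315 UPM in KO P19, 277 in WT P19, 261 in KO P25 and 321 in WT P25.

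Gbp2, Fas and Tnfrsf1a, named above as upstream genes, were also counted in Müller glia-like cells at P25. Gbp2 had 365 UMIs in KO and 18 in WT (9.31-fold), Fas 83 and 7 (5.44-fold) and Tnfrsf1a 435 and 86 (2.32-fold). Casp4 had 0 UMIs in these cells in both genotypes at P25, and Casp8 (27 and 9) did not differ detectably. The genotypes are compared over different cell states at P25, and a link to the members was not tested.

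Promoter sequences came from RefSeq (GRCm38.p6) for 6 members, all except Gsdmd and Zbp1. Each was searched on both strands for a GAS element (TTCNNNGAA, where N is any base), an ISRE core (GAAANNGAAA) and an NF-kappaB core (GGGNNNNNCC), which 8.30%, 3.44% and 50.8% of all 32851 promoters hold. Capitals mark bases inside a match, and overlapping matches join. Of the Ripk1 entries the second held 2 GAS, 1 ISRE and 1 NF-kappaB core matches. The Casp8, Ripk3 and Mlkl promoters and the first Ripk1 entry held none. The neighbours Casp1 and Casp4 each had NF-kappaB core matches, 1 in Casp1 (chr9:5298267-5298566) and 5 in the first Casp4 entry (chr9:5308599-5308898). Their sequences are shown because these members had the largest log2 fold changes in the retina and the RPE. Both are from the plus strand.
Casp1: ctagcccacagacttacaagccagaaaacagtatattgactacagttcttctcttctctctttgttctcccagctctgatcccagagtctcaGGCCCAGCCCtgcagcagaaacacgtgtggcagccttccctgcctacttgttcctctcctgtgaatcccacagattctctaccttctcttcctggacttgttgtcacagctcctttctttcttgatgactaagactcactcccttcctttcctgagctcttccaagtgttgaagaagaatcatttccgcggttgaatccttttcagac
Casp4: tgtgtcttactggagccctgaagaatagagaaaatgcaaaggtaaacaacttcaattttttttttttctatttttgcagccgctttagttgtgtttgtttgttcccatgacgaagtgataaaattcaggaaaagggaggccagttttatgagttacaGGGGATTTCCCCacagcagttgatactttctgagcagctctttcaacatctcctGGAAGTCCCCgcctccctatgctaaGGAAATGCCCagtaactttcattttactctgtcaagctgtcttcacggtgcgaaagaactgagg

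The bulk genes whose log2 CPM most resembled each member's over the 16 libraries were listed as a description, and the tissues separate the points. Pearson's r was 0.963 between Casp1 and Irf5 and 0.955 with Wfs1, which was also the closest gene to Zbp1 (0.95, then Gpr137b at 0.947). It was 0.998 between Casp8 and Tgfbr2 and 0.997 with St3gal4, 0.990 between Gsdmd and Elk3 and 0.988 with Tap2, and 0.988 between Ripk1 and Vwa5a and 0.987 with Rnase4. For Casp4 the closest were Lman1 (0.964) and Nras (0.963), for Ripk3 Tgfb3 (0.985) and Elf1 (0.981), and for Mlkl Ifi204 (0.953) and Golm1 (0.951).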

How the data were processed

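The authors' bulk tables held raw counts per gene, and the single-cell values the authors deposited were natural logs taken after scaling each cell, applied once more than usual. Inverting both steps gave whole UMIs for 99.99998% of values (within 0.01), with 7 cells as exceptions. Ensembl identifiers were mapped with GENCODE mouse release 21 (53706 of 53801 had a symbol). The authors' labels list tools, HOMER and edgeR among them, without saying which made the bulk tables.

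Each tissue was tested with edgeR 4.0.16 (TMM, filterByExpr, quasi-likelihood). Calls needed a Benjamini-Hochberg adjusted p below 0.05 over all genes tested and a fold change of at least 1.5. DESeq2 1.42.0 and limma 3.58.1 were alternatives. Replicates are separate bulk libraries; equal replicate numbers of WT and KO correlated (r 0.161 to 0.276 in the retina, 0.326 to 0.701 in the RPE), but so did some unequal numbers (to 0.206 and 0.682), so the numbers are not shown to be pairs and the block is an alternative only. Cells were clustered with scanpy 1.11.5 (2000 genes, 30 components, 15 neighbours, Leiden resolution 1.0).

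The members and the pathway lists (apoptosis machinery, BCL2 family, death receptor, inflammasome and pyroptosis, other gasdermins, necroptosis regulators) were chosen with earlier results of these data known. After values were seen, 2 listed genes were left out and are not used here; the most abundant marker is not named for every list. Besides members, named genes were those called in a list, at most 4 per list and tissue by p, the most abundant marker of a list, and the 2 genes most like each member. Tnfrsf10b, Bcl2l1, Gsdme, Naip2, Naip5 and Naip6 fall outside this rule and were chosen after their values were seen.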

Additional observations from a re-analysis of the deposited data

Results flagged for a closer look

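In 6 of 88 groups of 4 libraries, 1 library lay so far from the others that its gap, divided by the range of the group, passed the 95% critical value of Dixon's test. Chance gives about 1 in 20 such groups. The highest library stood out for Casp1 in retina WT (WT 4, 0.932) and in RPE WT (WT 1, 0.891), for Zbp1 in RPE WT (WT 1, 0.837) and in RPE KO (KO 4, 0.920), for Fas in retina WT (WT 4, 0.896) and for Birc3 in RPE WT (WT 1, 0.962). The retina WT flag of Casp1 rests on 2, 2, 2 and 5 counts, too few to set WT 4 apart from counting noise.

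For 8 of 12 named pathway genes the genotype effect differed between tissues by the interaction test (edgeR quasi-likelihood with Benjamini-Hochberg adjustment), beside 5.73% of all genes with a lower effect in the RPE and 3.11% with a higher one. These genes were named because they were called, most of them in the retina, which favours negative differences, so the count does not test the lists. The RPE log2 fold change minus that of the retina was -3.59 for Bik, -0.98 for Fas, -1.01 for Tnfrsf1a, -1.15 for Tnfrsf1b, -1.34 for Birc3, -1.71 for Gbp2, -0.97 for Gbp3 and -1.22 for Gbp5. No member was among them.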

How the results depend on the processing

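Of 83 retina member log2 fold changes under alternatives, 81 kept their direction and side of the threshold and 2 passed it, and none reversed. The count of called members stayed at 4 or 5 when single libraries were left out. It was 5 with library totals alone (Ripk1 called at 0.64), no filter, no minimum fold change or both tissues in a single fit, and 2 with at least 10 counts in every library, when 3 members were tested. Scaling by library totals alone moved the median of all retina genes from 0.00 to 0.11.

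In the RPE 118 of 134 kept both, 7 lost the call and 9 gained it. The count of 1 became 2 with library totals alone, DESeq2 or the replicate block, 0 with no filter (more genes tested) and 3 with both tissues in a single fit, and ran from 0 to 4 when single libraries were left out. It stayed at 1 with at least 10 counts in every library, but with Ripk3 called and Casp4 not tested. Apart from these, the cause was not tested.

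The count of members that differed between tissues ran from 0 to 1 when single libraries were left out. The tissue difference of Casp4 reversed to 0.37 with limma-voom and ran from -0.59 to 0.43 when single libraries were left out. The share of member UMIs in the 3 classes was 65.5% at Leiden resolution 2.0, 35.2% at 0.5, where the endothelium-like cells took an erythrocyte name, and 57.0% without the 5% of cells with the most UMIs.

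Limits: 1 single-cell library per genotype and age leaves no replicate spread, P30 differs in batch and depth, retina Casp4, Ripk3 and Mlkl rest on 7 to 48 counts per genotype, RPE libraries carried varying rod and choroid RNA, and transcript levels do not measure caspase cleavage, gasdermin pores or MLKL phosphorylation.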
